A study of Homo sapiens
Rattus norvegicus and Homo sapiens with 10 samples.

Results

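The small heat shock proteins are represented here by 8 genes, chosen by gene name: CRYAB and CRYAA, which encode the alpha-crystallins, and HSPB1, HSPB2, HSPB3, HSPB6, HSPB7 and HSPB8. Each name matched 1 row of a table of 62754 genes. The set was drawn up with earlier results of these libraries known, so the levels below are a description, and the edgeR p-values beside them are those of the fit over all genes and no independent evidence for the set.

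The tumours were grown from U251N, an established human glioblastoma line, in the brains of adult female RNU/RNU rats, an athymic strain that lacks the T cells needed to reject a human graft. The 3 primary tumours were never ablated, and the 3 recurrent tumours had regrown following laser interstitial thermal therapy, a treatment that heats the tumour through a laser fibre, here guided by diffusion-weighted magnetic resonance imaging. The 3 tumour-free controls were 1 brain with a failed graft (control replicate 1) and 2 procedural brains, and the last library was 1 culture of the line from outside the experiment. All tumours therefore share 1 cell line and an immune-deficient host, and the sources used here do not give the time from implantation or ablation to collection. The labels do not tie each library to a separate animal, so p-values measure the spread between these libraries, which may be technical in part.

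Small heat shock proteins are chaperones that need no ATP. They share a conserved alpha-crystallin domain, assemble into oligomers, bind proteins that begin to unfold and hold them until ATP-dependent chaperones of the HSP70 class can refold them or pass them to degradation. In the nervous system CRYAB is known from astrocytes and oligodendrocytes and from Rosenthal fibres, where it lies with the filament protein GFAP, and heat induces CRYAB and HSPB1 through the heat shock factor HSF1.

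The shared domain is visible in the reference coding sequences (GENCODE 29, GRCh38). The 60-base stretch of CRYAB most like HSPB1 is shown with its best ungapped in-frame match in 4 relatives, because these are the genes whose separate counting the results depend on. Positions count from the A of the start codon, CRYAB is in lower case, and capitals in the others mark bases identical to CRYAB.
CRYAB (307 to 366): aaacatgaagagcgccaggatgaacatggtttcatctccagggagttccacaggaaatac
CRYAA (295 to 354): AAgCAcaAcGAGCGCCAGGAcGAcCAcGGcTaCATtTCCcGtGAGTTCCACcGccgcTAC
HSPB1 (367 to 426): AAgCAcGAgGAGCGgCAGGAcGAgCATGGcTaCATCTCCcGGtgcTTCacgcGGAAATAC
HSPB6 (304 to 363): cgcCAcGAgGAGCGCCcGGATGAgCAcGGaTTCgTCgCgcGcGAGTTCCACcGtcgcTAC
HSPB8 (370 to 429): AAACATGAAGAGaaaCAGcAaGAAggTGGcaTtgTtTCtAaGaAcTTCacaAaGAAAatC
Of the 60 bases, HSPB1 shared 44, CRYAA 43, HSPB6 41 and HSPB8 38. Over whole coding sequences the 28 pairs of members were 43.7% to 63.4% identical, with CRYAB and CRYAA the closest pair. The longest run of identical bases between the reference transcripts of any pair was 20, well under the read length of 100, so no full-length read matches a pair of members exactly. HSPB1 has processed pseudogenes that are closer: HSPB1P1 shares a run of 140 bases with it and HSPB1P2 a run of 81, and the HSPB1 counts could lose some reads to them or gain some.

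Before the results, the libraries need a word. The culture had the deepest library, with 65058642 counts in total, the tumours had 20321590 to 39714714 and the controls 1358753 to 4158124. Levels are given as CPM, the count divided by the library total and scaled to 1e6. For a gene with 0 counts, counting error alone permits a level of up to 3 counts. That limit was 0.0461 CPM in the culture, 0.0755 to 0.148 CPM across the tumours and 0.721 to 2.21 CPM across the controls. Structural small RNAs took 92.63% and 89.76% of the counts of control replicates 1 and 2, and 31.7% of control replicate 3. Control replicate 3 goes partly against its label: it held 4.9% graft reads against 0.33% and 0.55%, and 8 markers of glioblastoma cells (EGFR, SOX2, NES, VIM, CD44, CHI3L1, FABP7 and PTPRZ1) summed to 6343 CPM in it, against 98.6 and 482 CPM in the other controls and 7521 to 8944 CPM in the tumours. With small RNAs left out of the total, the sums were 1338, 4703 and 9287 CPM in control replicates 1, 2 and 3 and 8329 to 9556 CPM in the tumours, so that control replicate 2 stood much nearer to the tumours on that scale. Results that use the controls are given with and without control replicate 3. Host blood genes (4 of 4) and 6 of 8 microglia markers were at 0 in all 6 tumours. The microglia marker CSF1R stood at 1.36 to 3.59 CPM in the tumours and 0.738 CPM in the culture. Only 1 of 8 neuron markers and 1 of 8 endothelial and pericyte markers were at 0 in all 6 tumours. The neuron marker SNAP25 stood at 132, 34.1 and 18.5 CPM in control replicates 1, 2 and 3. It had 2.69 CPM in the culture and 1.07 to 2.84 CPM in the tumours. Host RNA can thus be counted on human genes.

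Within the family, 3 genes carried nearly all the counts. In the tumours HSPB1 made up 70.8% to 83.4% of the counts of the 8 genes, CRYAB 8.24% to 22% and HSPB8 6.24% to 9.73%. The other 5 genes together gave at most 0.272%. In the culture CRYAB made up 0.995% (Wilson 95% interval 0.84 to 1.18), HSPB1 85.2% and HSPB8 12.8%.

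**Figure D1:**
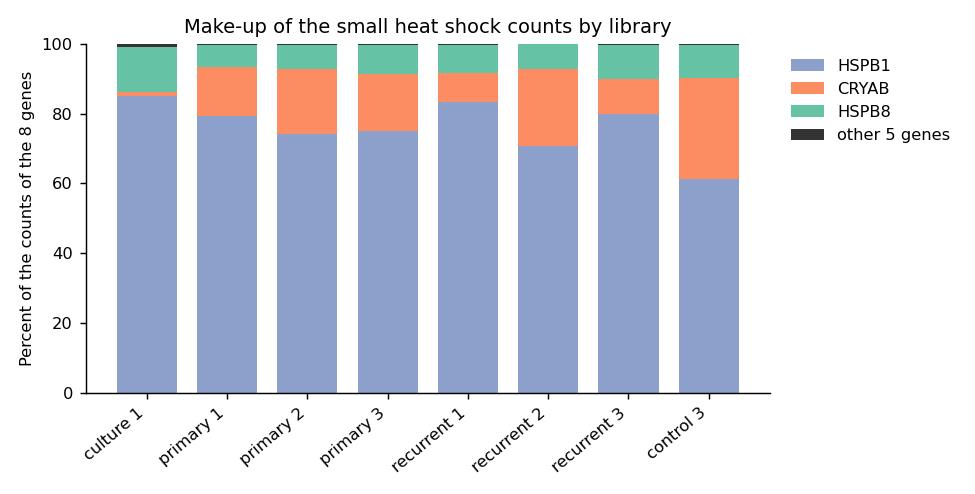
Stacked bars give the percent of the counts of the 8 genes that came from HSPB1, CRYAB, HSPB8 and the other 5 genes, for the culture, each tumour and control replicate 3. The CRYAB segment is 0.995% in the culture, 8.24% to 22% in the tumours and 28.9% in control replicate 3.

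Per length, the order of the genes differed between culture and tumours. Divided by the length of the reference transcript, HSPB1 stood at 194 CPM per kilobase in the culture, followed by HSPB8 at 12.3, CRYAB at 2.43 and HSPB6 at 1.45. In the tumours the median level of HSPB1 was 468 CPM per kilobase (range 364 to 596), that of CRYAB 116 (48.5 to 140.5), that of HSPB8 19.2 (17 to 23.7) and that of HSPB6 0.452 (0.217 to 0.868). The ranges of these 4 genes did not overlap in the tumours, so that CRYAB took the place above HSPB8. HSPB7, at 0 to 0.272 CPM per kilobase, overlapped with HSPB6 and with the 3 lowest genes. The whole family summed to 207 CPM in the culture and to 413 to 683 CPM in the tumours.

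The comparison of tumours with the culture sets the line's levels in the brain beside those in a dish. CRYAB was far higher in every tumour, HSPB1 about 2 to 3 times higher, HSPB8 less so, and HSPB6 lower. With 1 culture there is no test. The culture came from outside the experiment, and the tumours also held host reads. Growth in the brain therefore cannot be told apart from other differences between these libraries. A gene was called past 2-fold where all 6 tumours lay at least 2-fold to the same side of the culture on the CPM of the library total.

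CRYAB (chromosome 11, 111908565 to 111923722, minus strand, GRCh38), the alpha-B-crystallin that binds GFAP and other filament proteins, gave 134 counts in the culture, or 2.06 CPM (exact Poisson 95% interval 1.73 to 2.44, counting error only). It stood at 97.2, 98.9 and 100.4 CPM in the primary tumours and at 49.7, 119 and 41.1 CPM in the recurrent tumours. The lowest tumour, recurrent replicate 3, was 20.0-fold above the culture, the median tumour 47.6-fold and the highest, recurrent replicate 2, 57.8-fold. The log2 ratio of the tumour mean to the culture was 5.36, where the SD over the 6 tumours was 0.63. Of 14110 genes with a mean of at least 1 CPM over these 7 libraries, 2.3% were past 2-fold higher and 3.47% past 2-fold lower in this way, and of the 3 members among them CRYAB was the 1 past it. Ranked by the lowest of the 6 folds, CRYAB was number 8 of the 14050 of these genes with at least 10 culture counts.

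HSPB1 (HSP27; chromosome 7, 76302544 to 76304295, plus strand), which guards actin filaments and is phosphorylated under stress by the MAPKAPK2 kinase, stood at 176 CPM in the culture (Poisson interval 173 to 179.7). The primary tumours had 542, 395 and 455 CPM and the recurrent tumours 503, 384 and 330.5 CPM. All 6 lay above the culture, by 1.87-fold to 3.07-fold with a median of 2.41-fold. Only recurrent replicate 3 was under 2-fold, and without it HSPB1 was past 2-fold too. At a lower bar of 1.5-fold, which 5.05% of genes passed upwards and 8.89% downwards, HSPB1 passed with all 6 tumours.

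HSPB8 (HSP22; chromosome 12, 119178642 to 119221131, plus strand), which works with the co-chaperone BAG3 in selective autophagy of misfolded proteins, stood at 26.5 CPM in the culture (Poisson interval 25.3 to 27.8). The primary tumours had 42.6, 36.5 and 51 CPM and the recurrent tumours 49.2, 39 and 40.2 CPM. Every tumour was above the culture, but by no more than 1.38-fold to 1.92-fold.

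HSPB6 (HSP20; chromosome 19, 35754569 to 35758079, minus strand), best known from smooth and heart muscle, went the other way. It gave 137 counts or 2.11 CPM in the culture (Poisson interval 1.77 to 2.49), close to the 2.06 CPM of CRYAB there. The primary tumours had 0.788, 1.26 and 0.529 CPM from 20, 32 and 21 counts, and the recurrent tumours 0.935, 0.316 and 0.521 CPM from 19, 8 and 13 counts. All 6 were lower, by 1.67-fold to 6.66-fold, although the interval of primary replicate 2 reached 1.78 CPM and so touched that of the culture. Its mean over the 7 libraries was under 1 CPM, which kept it out of the count of genes past 2-fold.

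**Figure D2:**
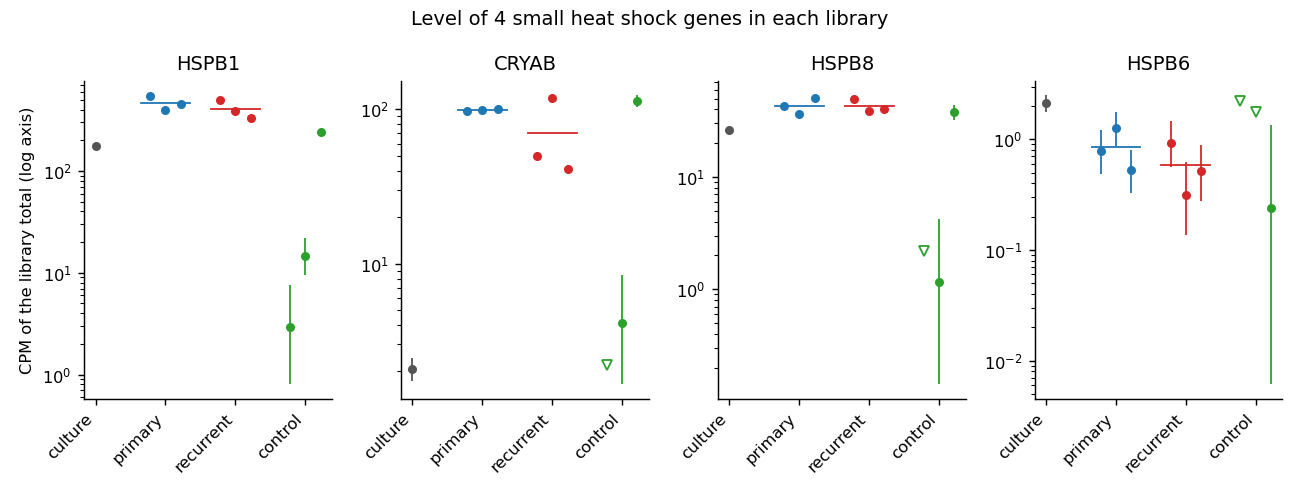
Each point is the CPM of the library total in a library on a log axis, for HSPB1, CRYAB, HSPB8 and HSPB6, with exact Poisson 95% intervals; horizontal bars are the means of the 3 primary and of the 3 recurrent tumours, and open triangles stand at the limit of 3 counts where the count was 0. CRYAB lies at 2.06 CPM in the culture and at 41.1 to 119 CPM in the tumours, while HSPB6 lies at 2.11 CPM in the culture and at 0.316 to 1.26 CPM in the tumours.

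The remaining members had few or no counts. HSPB7 (chromosome 1, minus strand), a chaperone of heart and skeletal muscle, had 0 counts in the culture, 20, 2 and 22 in the primary tumours and 0, 0 and 15 in the recurrent tumours. It was thus above the limit of 3 counts in primary replicates 1 and 3 and in recurrent replicate 3, at 0.788, 0.554 and 0.601 CPM. Control replicate 3 had 3 counts of HSPB7. HSPB2 (chromosome 11, plus strand), a muscle protein that binds myotonic dystrophy protein kinase, had 0 counts in the culture and in all controls, 3, 0 and 4 in the primary tumours and 2, 0 and 0 in the recurrent tumours. HSPB3 (chromosome 5), the partner with which HSPB2 assembles in muscle, had 2 counts each in primary replicates 1 and 3 and 0 in every other library. CRYAA (chromosome 21), the alpha-A-crystallin of the eye lens, had 13 counts in primary replicate 3 and 0 in every other library.

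HSPB2 and CRYAB are neighbours that are read in opposite directions. The starts of their reference transcripts lie 232 bases apart on chromosome 11, with HSPB2 beginning at 111912242 on the plus strand. In the 3 primary tumours CRYAB gave 2468, 2503 and 3988 counts and HSPB2 3, 0 and 4. The annotated span of CRYAB covers HSPB2 on the other strand, and the libraries were stranded, so that reads of the pair can be told apart. The readthrough gene HSPB2-C11orf52 had 15 counts in recurrent replicate 2 and 0 in every other library. It overlaps HSPB2 and C11orf52 on the same strand, and both had 0 counts in recurrent replicate 2. C11orf52 had 15 counts in recurrent replicate 3. The division of reads between these overlapping genes is uncertain.

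The tumour-free controls bear on how much host RNA was counted on these human genes. In bulk tissue, fewer human cells and less RNA per cell cannot be told apart. CRYAB had 0 counts in control replicate 1, 7 in control replicate 2 and 469 in control replicate 3, HSPB1 had 4, 25 and 993, and HSPB8 had 0, 2 and 157. Control replicates 1 and 2 thus had few counts of any member, while in control replicate 3 CRYAB stood at 113 CPM, within the range of the tumours. With small RNAs left out of the total, CRYAB stood at 0, 40.1 and 165 CPM in control replicates 1, 2 and 3, against 45.9 to 128 CPM in the tumours, so that control replicate 2, from its 7 counts, lay just below the lowest tumour. CRYAB per 100 HSPB1 counts, a ratio that needs no scaling between libraries, was 1.17 in the culture, 17.9, 25 and 22.1 in the primary tumours, 9.88, 31 and 12.4 in the recurrent tumours, 28 in control replicate 2 and 47.2 in control replicate 3. The ratio of control replicate 2 lay within the range of the tumours.

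Markers of host oligodendrocytes, cells that also make CRYAB, stood near their culture level in the tumours. The 8 oligodendrocyte markers summed to 135 CPM in the culture, 163 to 186 CPM in primary tumours and 125 to 202 CPM in recurrent tumours, mostly from CNP, which the culture also held at 133 CPM. The myelin markers MAG and MOBP stood at or below 0.0755 CPM in every tumour, and OPALIN was at 0. The part of these cells in the CRYAB level was not tested.

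Taken per estimated host read, the CRYAB rate of control replicate 2 would account for 0.114% to 0.98% of the CRYAB counts of a tumour, and that of control replicate 3 for 4.38% to 37.5%. With the whole rate of control replicate 3 taken off, the tumours stood at 25.7 to 109 CPM of CRYAB, 12.5-fold to 52.7-fold above the culture. The 2 lowest were again recurrent replicates 3 and 1, at 25.7 and 32 CPM. For HSPB1 the rate of control replicate 3 would account for 2.05% to 9.89% and for HSPB8 for 2.89% to 12.9%. Control replicate 3 also held graft reads, so its rate includes graft RNA. These rates come from brains labelled tumour-free, and host cells around a tumour may differ. The host part of the levels in the tumours was not tested.

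A fit of the 6 tumours against the 3 controls called none of the 5 members that passed the filter on low counts, where 5.42% of 16389 genes were called, 0.927% as higher and 4.5% as lower in the tumours (edgeR quasi-likelihood test, adjusted p under 0.05). HSPB1 had the smallest p, with a log2 fold change of 1.24 (SE 0.48, edgeR adjusted p = 0.193), and it was the 1 of 5 members at an unadjusted p under 0.05, where 19.3% of all genes tested were. DESeq2 and limma-voom called 0 members. Without control replicate 3 edgeR called 2 of 5 members higher in the tumours, HSPB1 at 2.05 (adjusted p = 0.00726) and HSPB8 at 2.49 (adjusted p = 0.042), where 7.34% of 17223 genes were called higher. These fold changes compare shares of the human counts of a library, not amounts of RNA in the tissue.

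The comparison at the centre of the study set recurrent against primary tumours. No member passed the test: CRYAB and HSPB1 were on average lower in the recurrent tumours, HSPB8 was nearly equal, and the groups overlapped for all 8 genes. Of 15928 genes tested by edgeR, 0.00628% (1 gene) were called at an adjusted p under 0.05, 8.38% had an unadjusted p under 0.05 and 15.3% had groups that did not overlap. Of the 8 members 5 were tested, and 0 had an unadjusted p under 0.05. DESeq2 and limma-voom also called 0 members. HSPB2, HSPB3 and CRYAA did not pass the filter on low counts.

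CRYAB stood at 95, 106 and 98 CPM in the primary tumours and at 50.9, 115 and 41.1 CPM in the recurrent tumours, here scaled by the trimmed mean of M-values (TMM). The primary tumours lay within a narrow band, while 2 recurrent tumours were below it and recurrent replicate 2 was above it. The means were 99.6 ± 5.52 and 69 ± 40.1 CPM (SD, n = 3 each), and the log2 fold change was -0.53 (SE 0.32, edgeR adjusted p = 0.656). The value rested on single libraries. Without recurrent replicate 2 it was -1.13 (edgeR adjusted p = 0.111), without recurrent replicate 3 -0.27 and without recurrent replicate 1 -0.35.

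The tumours lowest for CRYAB also had the lowest graft share. Recurrent replicates 1 and 3, the lowest for CRYAB, had 29.44% and 33.05% graft reads per the labels. The other 4 tumours had 42.52% to 64.4% and lay between 95 and 115 CPM. Among these 4 CRYAB did not follow the graft share. Primary replicate 3 had 64.4% and 98 CPM, and recurrent replicate 2 had 42.67% and 115 CPM. In a fit that took the graft percentage into account, the CRYAB log2 fold change was -0.17 (SE 0.387, edgeR adjusted p = 0.916). In the same fit the other tested members except HSPB8 moved away from 0, HSPB1 to -0.39, HSPB6 to -1.59 and HSPB7 to -1.45, against the values below. Both libraries with a low graft share were recurrent tumours, so graft share and tumour group cannot be told apart here. A cause of the CRYAB levels was not tested.

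**Figure D3:**
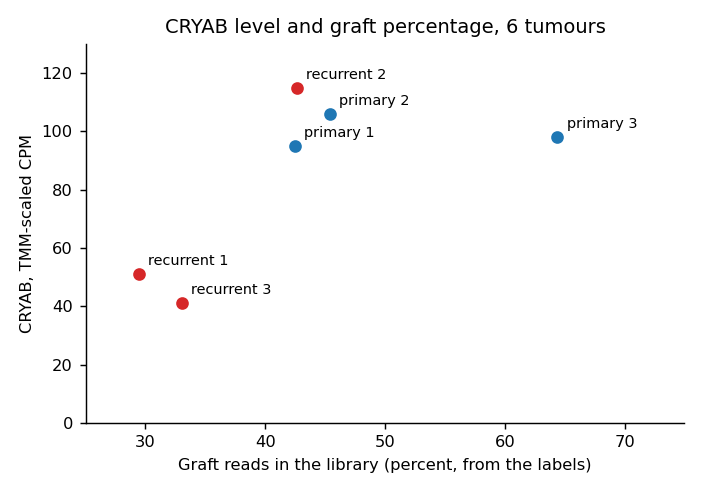
Each point is a tumour, with the percent of graft reads from the labels on the horizontal axis and the TMM-scaled CPM of CRYAB on the vertical axis. Recurrent replicates 1 and 3 sit lowest on both axes, and recurrent replicate 2 sits among the primary tumours at 42.67% graft reads and 115 CPM.

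HSPB1 stood at 529.5, 423 and 444 CPM in the primary tumours and at 515, 370.3 and 330.5 CPM in the recurrent tumours (TMM-scaled), with means of 466 ± 56.5 and 405 ± 97.3 CPM (SD, n = 3 each). The log2 fold change was -0.20 (SE 0.20, edgeR adjusted p = 0.775). Recurrent replicate 1, low for CRYAB, was the second highest of the 6 tumours for HSPB1, so the genes did not order the tumours alike. HSPB8 had 41.6, 39.1 and 49.8 CPM in the primary and 50.4, 37.6 and 40.2 CPM in the recurrent tumours. Its log2 fold change was -0.03 (SE 0.16, edgeR adjusted p = 0.966), the smallest of the tested members. HSPB6 differed by -0.56 (SE 0.69, edgeR adjusted p = 0.818) and HSPB7 by -1.18 (SE 1.32, edgeR adjusted p = 0.802), both from few counts and with errors larger than the differences. With each tumour left out in turn, HSPB1 ranged from -0.08 (without recurrent replicate 3) to -0.41 (without recurrent replicate 1) and HSPB6 from -0.12 (without primary replicate 2) to -1.08 (without recurrent replicate 1). HSPB7 ranged from -0.60 (without recurrent replicate 2) to -6.69 (without recurrent replicate 3, where the remaining recurrent tumours had 0 counts, so that this fitted value is no bound).

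**Figure D4:**
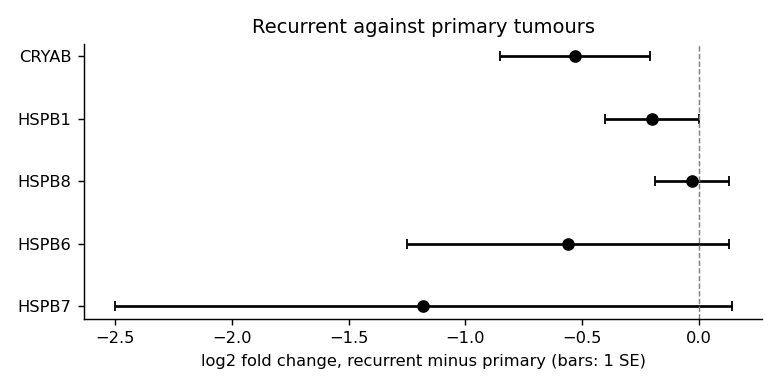
Points are the edgeR log2 fold changes of recurrent minus primary tumours for the 5 members tested, and bars are 1 SE. CRYAB is at -0.53, HSPB8 at -0.03, and none of the 5 passed the test.

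The genes whose profile over the 6 tumours was most like each of the 2 most abundant members were found by the root mean square difference of log2(CPM + 1) values centred on their mean, among 9612 genes with a mean of at least 10 CPM. For CRYAB these were DRAXIN, a guidance protein of growing axons, the kinase CDK18 and NT5E, the ecto-5'-nucleotidase CD73, each with a difference of 0.25 on the log2 scale. NT5E had 67.1, 75.8 and 79.7 TMM-scaled CPM in the primary and 31.8, 90.6 and 45.7 CPM in the recurrent tumours, and so shared with CRYAB the low recurrent replicates 1 and 3 and the high recurrent replicate 2. For HSPB1 they were F2RL1, a receptor cut by proteases (0.06), the antiviral protein SHFL (0.06) and GNPTG, a subunit of the enzyme that tags lysosomal proteins (0.07). A close profile over 6 tumours says nothing of shared function or control.

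Other crystallin genes ranged from undetected to abundant. Of 19 genes of the beta, gamma and other crystallin families, 9 were at 0 in all 6 tumours and 6 were tested, 3 higher and 3 lower in recurrent tumours (median log2 fold change -0.08, against -0.007 over all genes tested), with 0 called. The 19 summed to 329 to 423 CPM in the tumours, most of it from CRYBG1 at 183 to 270.3 CPM, CRYZ at 60 to 89.1 CPM and CRYBG3 at 40.7 to 70.4 CPM. CRYZ, a quinone reductase, had a log2 fold change of 0.35 (SE 0.15, edgeR adjusted p = 0.589). CRYL1, a sugar dehydrogenase, differed by -0.45 (SE 0.21) and CRYGS, a lens protein, by -1.03 (SE 0.96). None of the 5 with a mean of at least 1 CPM was past 2-fold against the culture.

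A list of 5 genes held heat shock factors and HSBP1, which is not a heat shock factor itself. The 4 that were tested had negative log2 fold changes in recurrent tumours, with a median of -0.26 and 0 called. HSF2 was nearly equal, at -0.02 (SE 0.17). HSF1 stood at 59.1 CPM in the culture and 62.3 to 84.5 CPM in the tumours and differed by -0.13 between the tumour groups (SE 0.14, edgeR adjusted p = 0.793). HSF4, the factor of lens development, differed by -1.22 (SE 0.63) at a low level of 0.481 to 1.94 CPM, and HSBP1, a small protein that binds HSF1, by -0.40 (SE 0.18). Their edgeR adjusted p-values were 0.623 and 0.591.

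Among 15 partner chaperones and BAG proteins, 9 were higher and 6 lower in recurrent tumours (median 0.06), with 0 called. The genes with the largest differences were HSPA1A at 0.65 (SE 0.43), HSPA1B at 0.33 (SE 0.23) and BAG3 at 0.31 (SE 0.18), with edgeR adjusted p from 0.644 to 0.699. HSPA1A and HSPA1B are near-identical copies of the inducible HSP70 gene, so the division of reads between them is uncertain. Against the culture 2 of the 15 were past 2-fold, both higher, where 2.3% of all 14110 genes were. HSPA8, the constitutive HSP70, had 723 CPM in the culture and 1563 to 2281 CPM in the tumours, and HSPA1B had 79.1 CPM and 195 to 433 CPM. BAG3, the partner of HSPB8, stood at 153 CPM in the culture and 86.9 to 165 CPM in the tumours, on both sides of the culture.

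**Figure D5:**
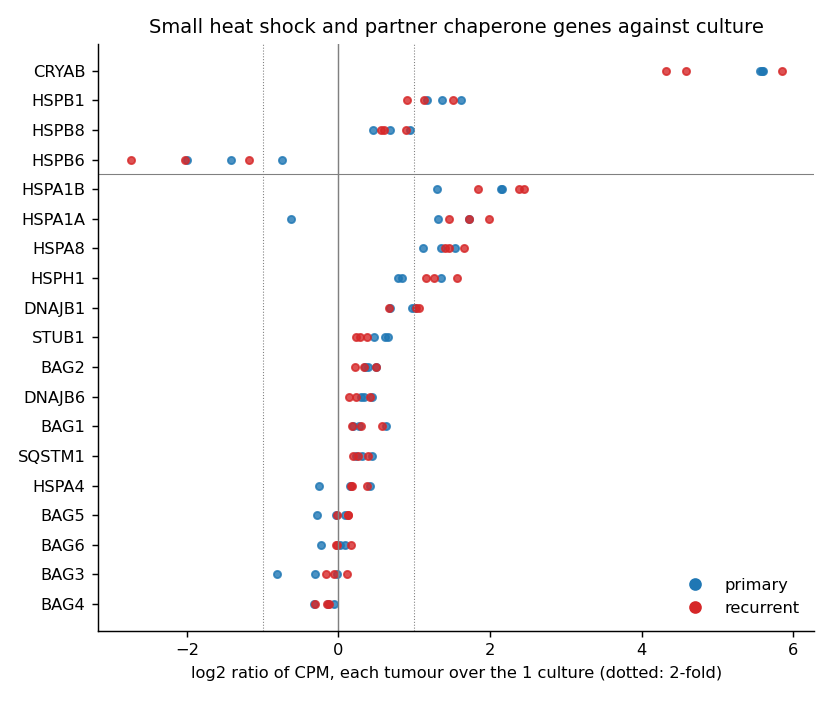
Each point is the log2 ratio of the CPM of a tumour to that of the 1 culture library, for 4 small heat shock genes (top) and 15 partner chaperones and BAG proteins (below the line), with dotted lines at 2-fold. CRYAB lies farthest to the right, at 20.0-fold to 57.8-fold, and HSPB6 lies left of 0 in all 6 tumours.

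Of 12 kinases of the p38 and protein kinase D routes that phosphorylate HSPB1, 7 were higher and 5 lower in recurrent tumours (median 0.11), with 0 called. MAPK12 differed by -0.51 (SE 0.25), MAPK13 by 0.48 (SE 0.59) and MAPKAPK3 by 0.45 (SE 0.23), with edgeR adjusted p from 0.617 to 0.819. None was past 2-fold against the culture.

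Of 13 filament and actin genes whose products these chaperones bind, 9 were tested, 4 higher and 5 lower (median -0.07), with 0 called. GFAP had the smallest p, with a log2 fold change of -0.81 (SE 0.17, edgeR adjusted p = 0.267), and stood at 138 CPM in the culture, 457 to 596 CPM in primary and 285 to 336 CPM in recurrent tumours. Recurrent replicate 2 had the lowest GFAP, 285 CPM, and the highest CRYAB. VIM, the vimentin of glioma cells, differed by -0.33 (SE 0.13, edgeR adjusted p = 0.583) and FLNA, which links actin filaments, by 0.35 (SE 0.20, edgeR adjusted p = 0.647). Against the culture GFAP and the actins ACTB and ACTG1 were past 2-fold higher, 3 of the 9 genes with a mean of at least 1 CPM. Over all 14110 genes the share past 2-fold higher was 2.3%.

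Markers of muscle, the tissue in which HSPB6, HSPB7, HSPB2 and HSPB3 are abundant, were low. The 13 muscle markers summed to 64.7 CPM in the culture, 69.1 to 92.6 CPM in primary and 64.6 to 75.6 CPM in recurrent tumours. Of the 5 with a mean of at least 1 CPM, 2 were past 2-fold higher and 1 past 2-fold lower in the tumours than in the culture. The shares over all 14110 genes were 2.3% higher and 3.47% lower. ACTA2, the smooth muscle actin, stood at 3.91 CPM in the culture and 13.4 to 26.8 CPM in the tumours, and TAGLN at 1.41 and 3.65 to 12.3 CPM. TNNT1, a troponin of slow skeletal muscle, stood at 32.3 CPM in the culture and 4.93 to 10.7 CPM in the tumours. The muscle regulators MYOD1 and MYOG were at 0 in all 6 tumours. The 8 host astrocyte markers, some of which glioma cells also express, summed to 999 to 1150 CPM in primary and 693 to 819 CPM in recurrent tumours. The culture had 324 CPM, and most of each tumour sum came from GFAP and GJA1. Of the 6 with a mean of at least 1 CPM, GFAP, GJA1 and S100B were past 2-fold higher than the culture. SLC1A2, at 0.513 to 2.8 CPM in the tumours and 2.61 CPM in the culture, was not. Nor was ALDOC, at 0.886 to 6.83 and 4.57 CPM. The part of host astrocytes in the levels of the small heat shock genes was not tested.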

How the data were processed

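RNA from 10 libraries was analysed. Per the submitters' processing notes, STAR, Salmon 1.10.3 and DESeq2 were used with GRCh38. The sources used here give neither their roles, the annotation release nor the xengsort read classes that were counted. The authors deposited Salmon estimated counts per gene, unscaled, with fractional values in 0.98% to 15.13% of genes. Salmon divides reads shared between near-identical transcripts by a model. Per the labels' protocols, libraries were stranded and depleted of ribosomal RNA. Gene coordinates, types and transcript lengths came from GENCODE 29 (58261 of 62754 gene IDs matched, all 8 members among them).

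Estimated counts were rounded and tested in R 4.3.3 by edgeR 4.0.16 (low-count filter at its defaults, TMM scaling, two-sided quasi-likelihood F test, Benjamini-Hochberg adjustment over all genes, threshold 0.05). The script was tested on simulated data. SE is the fold change divided by the square root of F. DESeq2 1.42.0 and limma 3.58.1 were alternatives. Host reads were estimated as the counts without 7589 structural small RNA genes, times the ratio of host to graft percentages, a form chosen after seeing the data. Groups came from the treatment labels, and replicates are numbered in record order. Members and lists were chosen with earlier results of these data known. Named genes are all members, up to 3 genes of each list with the largest difference between tumour groups, and the 3 closest profiles of 2 members. Genes named beyond this rule were chosen after their values were seen. The values of 1 marker gene are not reported here.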

Additional observations from a re-analysis of the deposited data

How the results depend on the processing

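Across 13 alternatives of the recurrent against primary fit, 0 members were called in each. CRYAB came nearest to the threshold with no low-count filter, at -0.54 (SE 0.165, edgeR adjusted p = 0.0734). Its SE in the main fit was 0.316, with an edgeR adjusted p of 0.656. HSPB8, near 0, ranged from -0.17 to 0.08 with each tumour left out, turning to 0.08 without primary replicate 3 and to 0.04 without recurrent replicate 2, and was 0.04 under a graft percentage covariate. Over all genes that comparison called 118 genes with DESeq2, 411 with no low-count filter and 0 to 23 with each tumour left out, against 1. For tumours against controls, leaving out each library gave 0 to 2 members called, 2 without control replicate 3, and 175 (limma-voom) to 2644 genes (without control replicate 3) against 889. CRYAB, at -0.09 there, ranged from -0.40 to 1.65 with each library left out and turned to 0.09 with DESeq2, 0.07 without recurrent replicate 1, 0.13 without recurrent replicate 3 and 1.65 without control replicate 3. HSPB6, at 1.31, turned to -0.37 with DESeq2 and -0.62 with limma-voom. HSPB7, at -1.37, ranged from -3.77 to 5.67 and turned to 5.67 without control replicate 3, where the other controls had 0 counts, so this fitted value is no bound. The cause of the other turns was not tested. Against the culture, 2 members were past the bar at 1.5-fold, and leaving out each tumour gave 1 to 2 members, 2 without recurrent replicate 3. The log2 ratio of CRYAB to the culture was 5.15 with the host rate of control replicate 3 subtracted, an alternative added after seeing the data. No paired analysis was possible because the labels give no replicate numbers. Depth limits HSPB2, HSPB3 and CRYAA, which had at most 13 counts in a library.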

Other observations

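The table held 44 rows whose names begin with HSPB or CRY, of which 13 were at 0 in all 10 libraries. HSPB9, a testis member of the small heat shock family, had 3 counts in the culture and 0 in every other library. The pseudogenes HSPB1P1 and HSPB1P2 had at most 7.887 and 5.544 estimated counts, against 8241.6 or more for HSPB1 in each tumour.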
